A study of Mus musculus with 9 samples.

Results

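CD4 T cells that had entered the lung in acute allergic airway inflammation were compared with naive CD4 T cells of the spleen, across all genes on the array. The groups compared hold 6 of the 9 arrays of the series (Affymetrix Mouse Gene 1.0 ST), 3 titled Th2 acute inflammation and 3 titled naive CD4+ T cells, as the titles assign them. The other 3, titled Th2 chronic inflammation, were in the fit too and add only to the estimate of the spread. For each of 19937 genes, the brightest probe set that names the gene alone was taken, and its value is an RMA-normalised log2 intensity. The lung cells came from mice given 3 intraperitoneal injections of 10 µg ovalbumin (OVA) in 1.5 mg alum at days 1, 14 and 21. These mice then inhaled 1% OVA on 3 successive days, and their cells were taken at day 29. Naive cells came from sham-treated mice, also at day 29. Chronic Th2 cells came from lungs at day 104, from mice given the same injections that inhaled 1% OVA 2 times a week for 12 weeks. Lungs were digested with collagenase D and DNase I for 30 min at 37 °C, and T helper 2 (Th2) cells were sorted as CD4+ CD69+ ST2+. Naive cells were sorted as CD4+ CD44-, with 1 further surface marker. By the labels, both kinds of cells were then stimulated for 8 h with antibodies to CD3 and CD28, so all levels are those of cells labelled as stimulated. The strain and age of the mice, and whether an array holds 1 animal or a pool, are not stated in the labels. The titles number the arrays as biological replicates, and where they are not separate animals, each p measures only the spread between samples. Organ, allergen, digestion, sort and cell state all differ between the groups and cannot be told apart.

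A naive CD4 T cell circulates between blood and lymphoid organs, held in quiescence by a small set of transcription factors, and enters lymph nodes with the help of CCR7. After antigen and interleukin 4 have acted on it, GATA3 opens the locus that holds the genes of interleukins 4, 5 and 13, and the cell moves to inflamed tissue as a Th2 cell. There interleukin 5 feeds eosinophils, interleukin 13 acts on mucus cells and smooth muscle, and interleukin 4 turns B cells to IgE.

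The 3 signature cytokine genes lie together on mouse chromosome 11, and the 250 bases before the start of each are shown because these are the signature genes of the lung cells. The sequences are RefSeq's of build GRCm38.p6, 5′ to 3′ on the strand of the gene. Capitals mark TGGAAA or its reverse complement, a form of the core to which the NFAT factors of T cell activation bind. Other forms of that core, such as AGGAAA, are neither marked nor counted.
Il5, chr11:53720544-53720793, plus strand: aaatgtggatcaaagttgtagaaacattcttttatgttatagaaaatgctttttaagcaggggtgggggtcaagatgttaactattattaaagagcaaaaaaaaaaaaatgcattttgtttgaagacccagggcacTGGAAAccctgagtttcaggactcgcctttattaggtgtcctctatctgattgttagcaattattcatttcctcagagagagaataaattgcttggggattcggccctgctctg
Il13, chr11:53634703-53634952, minus strand: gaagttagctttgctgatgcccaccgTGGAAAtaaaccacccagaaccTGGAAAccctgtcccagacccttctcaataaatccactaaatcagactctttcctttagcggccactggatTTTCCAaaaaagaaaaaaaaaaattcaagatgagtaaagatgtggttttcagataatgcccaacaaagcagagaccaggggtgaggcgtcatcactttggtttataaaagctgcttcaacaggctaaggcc
Il4, chr11:53618666-53618915, minus strand: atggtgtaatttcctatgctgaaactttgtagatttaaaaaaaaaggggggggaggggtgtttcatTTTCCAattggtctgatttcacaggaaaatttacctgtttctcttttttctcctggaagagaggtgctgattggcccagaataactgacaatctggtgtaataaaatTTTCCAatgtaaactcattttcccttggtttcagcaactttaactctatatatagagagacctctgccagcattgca
The word stood 1 time before Il5, 3 times before Il13 and 2 times before Il4. At least 1 copy was present in 18.7% of the 27025 promoters of the table and in 17.2% of the 15613 of genes tested here. It was in 14.9% of the 596 of genes that rose with all arrays and in 12.7% of the 332 of genes that fell. Of the 16 cytokine genes that rose, 13 had a promoter in the table and 7 of those held it. GATA words (GATA with A or T before it and A or G after it, on either strand) stood 1 time before Il5, 1 time before Il13 and 0 times before Il4, with a share of 27.1% over all promoters, 22.9% over genes tested, 18.6% over those that rose and 14.5% over those that fell. An AP-1 word, TGANTCA, was in none of the 3 windows and in 6.85% of all promoters, 6.07% of those of genes tested, 7.55% of those that rose and 3.61% of those that fell. Of the same 13 cytokine promoters, 5 held a GATA word and 3 an AP-1 word. No word contains another, and a match is a description of letters, not of binding.

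Il5 was at 5.01, 5.15 and 5.31 on naive 1, 2 and 3 and at 12.72, 12.59 and 12.64 on acute Th2 1, 2 and 3, the order used throughout. Il13 was at 6.04, 6.37 and 6.57 in naive and 13.06, 13.02 and 13.09 in acute Th2 cells, and Il4 at 5.90, 6.15 and 6.13 and 12.16, 11.30 and 11.43. All 3 genes were bright on every lung array and dim on every naive array, with differences of 7.50, 6.73 and 5.57. The 1015 olfactory receptor genes, taken as the background of the array, had a median of 5.18 and a 95th percentile of 6.53. Where a group mean lay at or below 6.53, the difference is one of intensities and its size need not be that of expression. That holds for the naive means of these 3 genes.

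Naive 1 stood apart from both other naive arrays, so that counts are given with and without it, as are the differences of genes on which it weighs. All 156 genes named by rule that passed with all arrays also passed without it and with the same sign. Their differences moved by over 0.5 for 18 of them and by at most 1.21, for Dapl1. Across genes its correlation was 0.938 with naive 2 and 0.941 with naive 3, against 0.991 between naive 2 and 3 and 0.987 to 0.996 between acute Th2 arrays. It lay more than 2 log2 units from the mean of naive 2 and 3 for 220 genes, 151 of them lower and 69 higher on naive 1. At the same threshold, but between single arrays, 0 genes separated naive 2 from naive 3. At most 3 separated any pair of acute Th2 arrays.

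The genes that were lowest on naive 1 were led by genes that T cells switch on after stimulation. Il2, the T cell growth factor, was at 5.07, 11.33 and 11.27, and Irf4, a transcription factor whose level follows the strength of receptor signalling, at 6.87, 11.73 and 11.71. Ccl3, a chemokine of activated T cells, was at 5.54, 11.40 and 11.31. On all 3, naive 2 and 3 lay beside or above the acute Th2 arrays, at 10.95, 12.01 and 11.69 for Il2, 11.58, 11.89 and 11.81 for Irf4 and 10.60, 9.99 and 9.98 for Ccl3. The other 3 of the 6 lowest were Akr1c18, a steroid-metabolising enzyme, Asns, asparagine synthetase, and Sema7a, a semaphorin of activated T cells, at 5.01, 5.97 and 6.10 on naive 1. The 6 highest were Dapl1, Igfbp4, Jun, Dzip1, Flt3l and Dtx1. Genes that stimulation induces were thus on both sides. Jun, Junb, Fos, Fosb, Jund and Tnfaip3, given below among such genes, were all highest on naive 1 among naive arrays. Dapl1, a transcript abundant in resting naive T cells, was at 11.80, 8.14 and 8.19, and the insulin-like growth factor binding protein gene Igfbp4 at 10.28, 6.64 and 6.74. The 6 lowest and the 6 highest genes were chosen for this gap, so that the values describe the array and no test is given. The labels give naive 1 the same 8 h of stimulation as naive 2 and 3. Whether its cells responded to it, and the cause of the gap, was not tested.

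**Figure D1:**
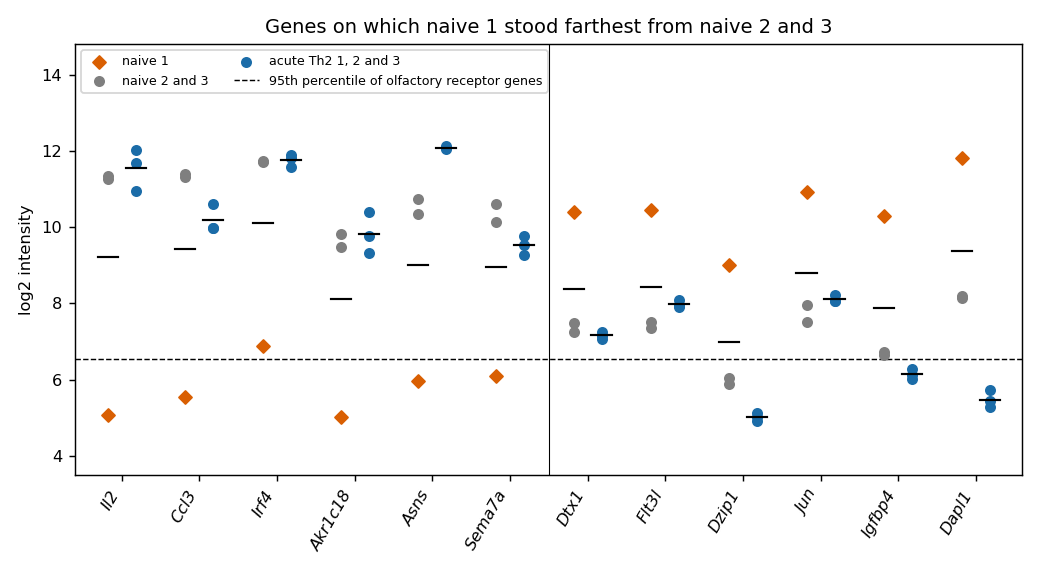
Log2 intensity on each of the 6 arrays for the 6 genes that were lowest (left) and the 6 that were highest (right) on naive 1 against the mean of naive 2 and 3. Diamonds are naive 1, grey points naive 2 and 3, blue points acute Th2 arrays, short bars group means and the dashed line 6.53. Il2 was at 5.07 on naive 1 and at 11.33 and 11.27 on naive 2 and 3.

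Over all genes, 1171 of 19937 (5.87%) passed an adjusted p of 0.05 in limma, 732 higher in acute Th2 cells (3.67%) and 439 lower (2.2%). Without naive 1, 2424 passed (12.2%), 1206 higher (6.05%) and 1218 lower (6.11%). Of the 1171, 1144 passed both times, none of them with another sign, and of the 1280 gained without naive 1, 795 were lower. Among genes that passed without naive 1, 28 had the opposite sign with all arrays. A stricter set passed with all arrays and in each of the 9 fits that left out 1 array, with 427 genes higher (2.14%) and 174 lower (0.873%), which is 601 in either direction (3.01%). The 3 acute Th2 and the 3 naive arrays did not overlap for 3925 genes (19.7%), 1754 of them with acute Th2 cells higher (8.8%) and 2171 with them lower (10.9%). Against naive 2 and 3 alone they did not overlap for 7141 (35.8%). Leaving out an array can only keep or raise this count, so that the rise is no measure of naive 1. Leaving out acute Th2 3 gave 653, the smallest count, and leaving out acute Th2 2 gave 681. The median difference over all genes was -0.03, and -0.04 without naive 1. An unadjusted p under 0.05 was reached by 3246 genes (16.3%).

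Large rises outnumbered large falls. A difference of at least 2 log2 units was found for 162 genes that rose and 41 that fell, and of at least 4 for 25 and 1. Without naive 1 these counts were 151 and 41, and 24 and 1. For 429 of the genes that rose and 325 of those that fell, both group means lay above the background of 6.53. The naive mean was at or below it for 226 that rose with an acute Th2 mean above, and the acute Th2 mean for 87 that fell with a naive mean above. For 104 called genes both means lay at or below it.

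**Figure D2:**
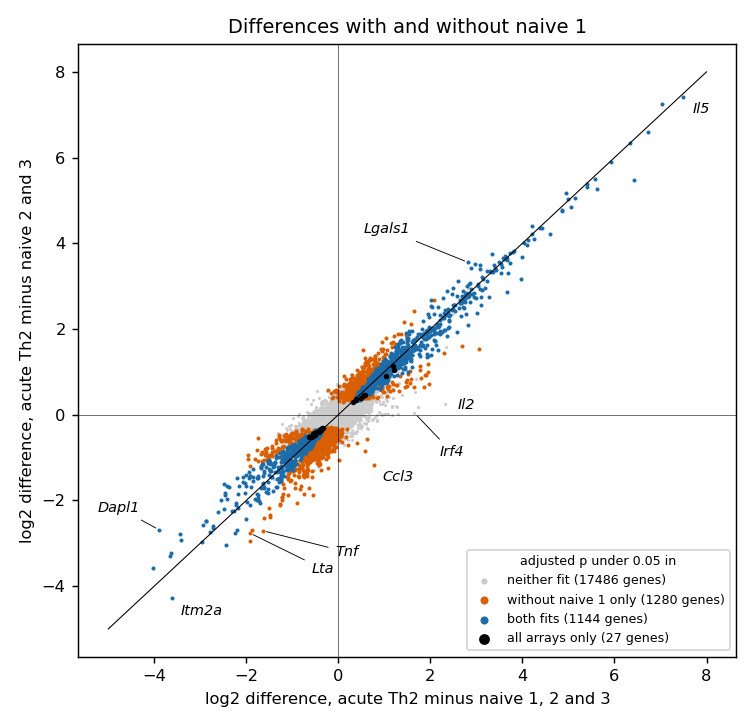
Each point is a gene, with its log2 difference from all 3 naive arrays on the horizontal axis and from naive 2 and 3 on the vertical axis, coloured by the fit in which it passed an adjusted p of 0.05. Il5 lies on the diagonal at 7.50 and 7.42, whereas Ccl3, at 0.77 and -1.17, lies on opposite sides of zero.

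Among genes measured above background on both sides, the largest rise was that of Mt2. This gene, a metallothionein that binds zinc and is induced by metals and glucocorticoids, was at 6.24, 7.15 and 7.46 in naive and 12.53, 12.59 and 12.56 in acute Th2 cells (difference 5.61, SE 0.26, adjusted p = 4.86e-06). Tigit, an inhibitory receptor, rose from 7.09, 6.68 and 7.19 to 11.92, 11.95 and 12.02 (4.98, SE 0.13, adjusted p = 1.74e-07). Ctla4, the inhibitory receptor that competes with CD28, rose from 7.96, 7.51 and 7.16 to 12.55, 12.47 and 12.49 (4.96, SE 0.17, adjusted p = 9.59e-07). On each of these 3 genes the acute Th2 arrays lay close together and far above every naive array. Icos, a costimulator of effector T cells, rose from 7.75, 8.94 and 8.91 to 12.21, 12.23 and 12.23 (3.69, adjusted p = 9.14e-05). Cpd, a membrane carboxypeptidase, was at 5.59, 7.89 and 8.04 in naive cells, with naive 1 the lowest, and at 10.81, 10.86 and 10.81 in acute Th2 cells. Its difference was 3.65, and 2.86 without naive 1. Pparg, the lipid-sensing nuclear receptor of lung Th2 cells, rose by 3.35 from 6.80, 6.80 and 6.95, Glrx, a glutaredoxin, by 3.33 from 8.21, 6.83 and 7.07, and Bmpr2, a receptor for bone morphogenetic proteins, by 3.29 from 7.64, 7.27 and 7.56. The chemokine receptors Ccr4 and Ccr8 complete the 10 and are described with their family. All 10 passed in each of the 9 fits that left out 1 array.

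The largest falls on both sides of the background were led by Lef1, a transcription factor of the resting T cell, at 11.71, 10.56 and 10.42 in naive and 7.80, 8.13 and 8.13 in acute Th2 cells (-2.88, SE 0.32, adjusted p = 0.000922, and -2.47 without naive 1). Ms4a6c and Ms4a6b, members of the family of CD20-like membrane proteins, fell by 2.72 and 2.63 on the log2 scale. Parp8, of the ADP-ribosyltransferase family, was at 9.69, 9.32 and 9.62 and 6.4, 7.07 and 7.01. Txk, a kinase of the Tec family that acts in T cell receptor signalling, was at 10.48, 8.92 and 8.48 and 6.72, 6.91 and 6.87 (-2.46, and -1.86 without naive 1). Il21r, the receptor for interleukin 21, was nearly level within each group, at 9.72, 9.83 and 9.57 and 7.24, 7.56 and 7.51 (-2.27, SE 0.14, adjusted p = 2.25e-05). Gramd3, a GRAM domain gene, fell by 2.55 and by 2.00 without naive 1. The other 3 did not pass in every fit. Adamts6, a secreted protease, was at 7.88, 9.73 and 9.61 and 6.4, 6.73 and 6.74 and had an adjusted p of 0.0541 without acute Th2 1. Tagap, a GTPase-activating protein of activated T cells, was at 9.99, 11.45 and 11.44 and 8.07, 9.15 and 9.06 and lost its call without naive 2, naive 3, acute Th2 1 or acute Th2 3 (adjusted p 0.0562 to 0.0734). Selenop, the selenium carrier, was at 10.65, 8.71 and 8.25 and 7.13, 6.90 and 6.98, with naive 1 the highest (-2.20, and -1.48 without it). It passed only with all arrays, without naive 1 and without naive 3, and its adjusted p reached 0.152 without the other arrays, taken 1 at a time.

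**Figure D3:**
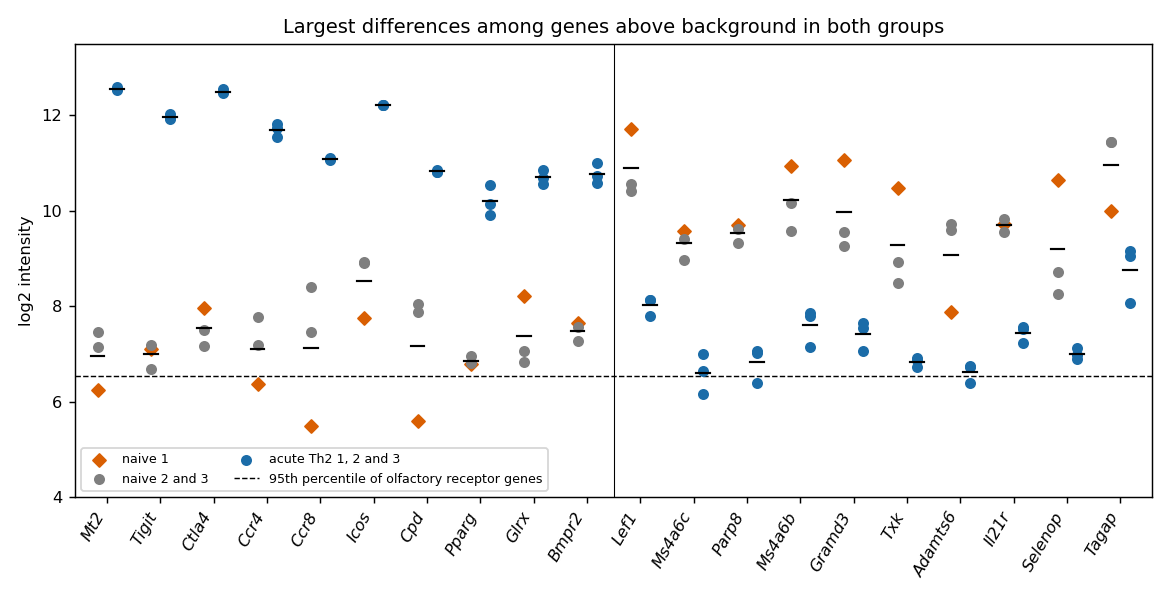
Log2 intensity on each of the 6 arrays for the 10 largest rises (left) and the 10 largest falls (right) among genes that passed, did not overlap between groups and had both group means above 6.53 (dashed line). Diamonds are naive 1, grey points naive 2 and 3, blue points acute Th2 arrays and short bars group means. Mt2 shows the largest rise, by 5.61, and Lef1 the largest fall, to -2.88.

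Gene groups were read from 24 lists, which share some members. They named 789 symbols, of which 734 were measured and 55 are not analysed here. The plot of list shares sets each list beside the share of all genes, which was 5.87% called with all arrays and 12.2% without naive 1. An unadjusted p under 0.05 was reached by 16.3% of all genes.

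Of 27 T cell cytokine genes, 16 rose and 1 fell, and all 17 passed in each of the 9 fits (19 and 2 without naive 1). The median difference was 2.39, and 1.80 without naive 1, against -0.03 over all genes. Besides Il5, Il13 and Il4, the list was led by Il10, an inhibitory cytokine, at 5.48, 4.97 and 4.70 in naive and 12.47, 11.75 and 12.01 in acute Th2 cells. Il9, a growth factor of mast cells, was at 5.56, 5.57 and 5.55 and 11.92, 12.02 and 11.79, with naive values within the range of background. Il3, a growth factor of basophils and mast cells, was at 4.23, 7.34 and 6.74 and 12.13, 12.86 and 12.56. On naive 2 and 3 it thus lay above 6.53, and its difference from them was 5.48 (SE 0.82). The 1 member that fell was Ltb, lymphotoxin beta, which shapes lymphoid tissue, at 9.14, 9.91 and 9.73 and 7.46, 8.02 and 8.02 (-1.76, SE 0.22, adjusted p = 0.00209). Its partner Lta was at 6.74, 9.20 and 9.33 and 6.36, 6.67 and 6.48. It did not pass with all arrays (difference -1.92, adjusted p = 0.115) and fell by 2.76 without naive 1 (adjusted p = 1.35e-06). Csf2, the eosinophil and macrophage growth factor GM-CSF, was at 5.34, 8.89 and 8.19 and 9.91, 10.48 and 10.06, and its call likewise turned on naive 1 (adjusted p = 0.12 with it and 0.0385 without). Il2 did not pass either way, with differences of 2.33 and 0.25.

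Of 13 ligands of the TNF family, 2 rose and 1 fell (2 and 2 without naive 1). Tnfsf10, the death ligand TRAIL, was at 6.80, 5.36 and 5.0 in naive and 8.70, 8.53 and 8.57 in acute Th2 cells (2.88, SE 0.38, adjusted p = 0.00274) and passed in all 9 fits. Tnfsf8, the ligand of CD30, was at 7.66, 9.84 and 9.86 and 11.81, 12.08 and 11.91 (adjusted p = 0.0149), and Fasl, the ligand of the death receptor Fas, fell from 6.49, 7.74 and 7.27 to 5.74, 5.98 and 5.75 (adjusted p = 0.0213). Both lost their calls without any 1 of the acute Th2 arrays, with adjusted p values up to 0.0719 and 0.0913, and Fasl also without naive 3. Tnfrsf8, which encodes CD30 itself, rose from 6.25, 6.31 and 6.21 to 9.76, 10.23 and 10.25. Tnf was at 7.65, 10.72 and 11.01 in naive and 7.72, 8.50 and 8.24 in acute Th2 cells. Naive 1 lay at the level of the lung arrays and naive 2 and 3 more than 2 units above all of them, so that the difference was -1.64 (adjusted p = 0.38) with naive 1 and -2.71 (adjusted p = 0.00179) without it. Cd40lg, the helper ligand for B cells, did not pass, with 9.06, 10.19 and 10.32 and 9.51, 9.90 and 9.82.

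Of 18 chemokine genes, 1 passed with all arrays (5.56%, against 5.87% of all genes). Without acute Th2 1 or without chronic Th2 3, 2 passed. Ccl1, the ligand of CCR8, rose from 7.14, 6.69 and 6.82 to 10.28, 10.17 and 9.85 (3.22, SE 0.24, adjusted p = 7.65e-05). Without naive 1, 3 more were lower in acute Th2 cells, the inflammatory chemokines Ccl3 and Ccl4 and the lymphotactin gene Xcl1, by 1.17, 1.14 and 1.18. With naive 1, the difference of Ccl3 was 0.77 and thus of the other sign.

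Of 30 receptors for chemokines and lipid attractants, 9 rose, 1 fell and 20 did not pass, with 7 and 1 in all 9 fits and 10 and 1 without naive 1. Ccr4, which binds CCL17 and CCL22, was at 6.37, 7.19 and 7.76 in naive and 11.55, 11.82 and 11.73 in acute Th2 cells (4.59, SE 0.29, adjusted p = 3.31e-05). Ccr8, the receptor for CCL1, was at 5.5, 7.46 and 8.41 and 11.06, 11.11 and 11.10, with a difference of 3.97, and of 3.16 without naive 1. Both receptors were lowest on naive 1. Cxcr6, a receptor of tissue-resident T cells, was at 5.61, 5.66 and 6.03 and 11.17, 11.08 and 11.25, and Ccr2, a receptor for monocyte chemoattractants, at 4.86, 4.96 and 4.76 and 9.01, 9.05 and 9.13. Naive means of Cxcr6, Ccr2, Ccr1 and the prostaglandin E2 receptor Ptger2 lay below 6.53, and the latter 2 rose by 2.29 and 2.14. Ccr7, which guides T cells into lymph nodes, was the member that fell, from 11.76, 10.91 and 11.28 to 8.96, 9.67 and 9.62 (-1.90, SE 0.26, adjusted p = 0.00339), and stayed well above background. Cxcr4 was at 9.89, 8.41 and 8.07 and 9.32, 9.6 and 9.37 and passed only without naive 1 (1.2, adjusted p = 0.00406).

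Of 31 interleukin receptor chains, 7 rose and 2 fell (11 and 3 without naive 1). Il10ra, the ligand-binding chain for interleukin 10, rose from 7.03, 6.46 and 6.50 to 9.28, 9.52 and 9.32 (2.71, SE 0.15, adjusted p = 1.51e-05). Il2rb, shared by the receptors for interleukins 2 and 15, rose from 8.99, 8.78 and 9.21 to 11.16, 11.27 and 11.19 (2.21, SE 0.13, adjusted p = 2e-05). Il9r rose by 1.41 and Il12rb1 by 1.73. The decoy receptor Il1r2 and Il18rap, a chain of the interleukin 18 receptor, rose from naive means under 6.53, by 3.54 and 2.17. Il17rb, a chain of the interleukin 25 receptor, rose by 1.11 (adjusted p = 0.0293), a call lost without naive 2, naive 3, acute Th2 1, 2 or 3 or chronic Th2 1 (up to 0.106). Il6st, the signalling chain gp130, and Il21r fell, Il6st by 0.73. Il2ra, the high-affinity chain CD25 that T cells gain on activation, was at 9.39, 12.03 and 12.44 in naive and 13.22, 13.16 and 13.13 in acute Th2 cells. It did not pass with naive 1 (adjusted p = 0.176) and rose by 0.94 without it (adjusted p = 0.00145).

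Of 45 costimulatory and inhibitory receptors, 12 rose and 6 fell. The counts were 19 and 10 without naive 1, and 3 fell without any 1 of the acute Th2 arrays. Lilr4b and Lilrb4a, a pair of related inhibitory receptors of leukocytes with similar sequences that a probe set may not tell apart, rose from 4.87, 4.71 and 5.25 to 10.73, 10.83 and 11.06 and from 5.07, 4.91 and 5.73 to 9.97, 10.10 and 10.24. Klrg1, an inhibitory receptor for cadherins found on effector cells and type 2 innate lymphoid cells, rose by 2.94 from 5.26, 5.88 and 5.84. Cd27, a costimulator of naive and memory cells, fell from 10.00, 9.62 and 10.05 to 8.21, 8.13 and 8.41 (-1.64, SE 0.15, adjusted p = 0.000263). Ly9, of the SLAM family, fell from 9.48, 9.41 and 9.40 to 7.73, 8.18 and 7.97, and Tnfrsf14, the lymphotoxin-related receptor HVEM, from 10.08, 9.95 and 10.40 to 9.36, 9.43 and 9.35. Those 3 passed in all 9 fits. The other 3 that fell, Tnfrsf1a, Cd84 and Cd5, each lost the call without any 1 of the acute Th2 arrays, and in other fits as well for Cd84 and Cd5 (up to 0.0744, 0.14 and 0.128). Cd28, the costimulator that the antibody bound, was at 11.10, 9.85 and 9.85 and 11.37, 11.18 and 11.26. It passed only without naive 1 (1.42, adjusted p = 0.00021). Slamf1, Slamf7 and the ligand gene Cd274 were also called only without naive 1, lower in acute Th2 cells by 1.67, 1.93 and 1.45.

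Among 35 integrins and adhesion molecules, 6 rose and 3 fell (9 and 3 without naive 1, and 1 fell without any 1 of the acute Th2 arrays). Itgb8, whose integrin activates TGF-beta, rose from 6.10, 6.18 and 6.03 to 9.55, 9.91 and 9.81 (3.66, SE 0.12, adjusted p = 4.62e-07). Itgae, the CD103 chain that binds E-cadherin on epithelium, rose from 5.92, 5.68 and 5.65 to 7.08, 7.29 and 7.34, and Itga2, a chain of a collagen receptor, from 6.53, 6.41 and 6.48 to 7.25, 7.30 and 7.29. The naive means of these 3 integrin genes lay under 6.53. The membrane proteases Adam19 and Adam8 rose from above it, from 7.27, 7.86 and 8.21 to 10.73, 10.69 and 10.87 and from 6.48, 6.69 and 6.63 to 8.97, 9.27 and 9.65. The tetraspanin gene Cd9 fell from 7.75, 8.41 and 8.03 to 6.53, 6.15 and 6.09. Itga6, a laminin-binding chain, fell by 1.92, a call lost without any 1 acute Th2 array (up to 0.072). Icam2 fell by 0.48, a call lost when any 1 array other than naive 1 was left out (up to 0.162).

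The genes of the sorted markers were set beside the gates. Cd44, on which the naive gate was negative, rose from 7.61, 7.30 and 7.72 to 9.18, 9.59 and 9.65 (1.93, SE 0.18, adjusted p = 0.000289). Cd4 was at 10.81, 9.49 and 9.6 and 10.35, 10.30 and 10.28, with naive 1 above the lung arrays and naive 2 and 3 below them. The difference of Cd4 was 0.35 (adjusted p = 0.689), and 0.77 without naive 1 (adjusted p = 0.000537). Cd69, on which the lung gate was positive and which stimulation induces on any T cell, was at 10.59, 12.08 and 12.20 and 10.77, 11.34 and 11.23. Its difference was -0.51 (adjusted p = 0.683), and -1.02 without naive 1 (adjusted p = 0.0443). Il1rl1, the gene of ST2, is not analysed here.

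Transcription factors of effector cells rose in the main. Of 45 effector and lineage factors, 26 rose and 1 fell, with 22 and 1 in all 9 fits, 31 and 4 without naive 1, and a median of 1.41 (1.21 without naive 1). Gata3, the Th2 lineage factor, was at 9.63, 8.44 and 8.25 in naive and 11.69, 11.83 and 12.02 in acute Th2 cells, so that naive 1 was the highest naive array, more than 2 units below every lung array. Its difference was 3.07 (SE 0.31) and 3.5 (SE 0.13) without naive 1. Maf, an activator of Il4 and Il10, was at 6.85, 6.43 and 6.05 and 10.85, 10.48 and 10.61 (4.21, adjusted p = 8.56e-06). Prdm1, the repressor Blimp-1 of effector cells, was nearly level within each group, at 6.28, 6.18 and 6.18 and 9.80, 9.82 and 9.80 (3.60, SE 0.09, adjusted p = 1.74e-07). Vdr, the vitamin D receptor, was at 5.85, 5.89 and 6.23 and 9.88, 9.53 and 9.57. Zbtb32, a zinc finger repressor that binds GATA3, was at 6.50, 7.21 and 6.96 and 10.08, 9.79 and 10.14. Rora, a nuclear receptor shared with type 2 innate lymphoid cells, was at 6.79, 7.69 and 7.83 and 9.42, 9.92 and 9.75. Naive means of Maf, Prdm1 and Vdr lay below 6.53, those of Gata3, Zbtb32 and Rora above it. The member that fell was Id3, an inhibitor of E proteins, from 6.42, 7.05 and 6.82 to 5.96, 5.72 and 5.67 (-0.98, adjusted p = 0.00731). Bcl6, the factor of follicular helper cells, was at 6.71, 8.96 and 9.48 in naive and 6.91, 7.32 and 7.12 in acute Th2 cells, and Pou2af1, an octamer coactivator, at 7.17, 9.36 and 9.46 and 7.50, 7.24 and 7.56. Both lay with naive 1 on the lung side, and both were lower in lung cells only without it, by 2.10 and 1.98.

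Of 36 genes of naive cell quiescence and homing, 17 fell, 0 rose and 19 did not pass, with 10 lower in all 9 fits. An unadjusted p under 0.05 in either direction was reached by 24, beside 16.3% of all genes. The counts of calls were 22 lower and 1 higher without naive 1, and 11, 11 and 10 lower without acute Th2 1, 2 and 3. The list's median level was 10.23, 8.71 and 8.74 on naive 1, 2 and 3 and 7.70, 7.80 and 7.83 on the acute Th2 arrays, so that naive 1 was the highest. Its median difference was -1.55, and -0.93 without naive 1. Ms4a4b, a CD20-like membrane protein of resting T cells, fell from 10.23, 8.93 and 8.82 to 4.87, 5.46 and 5.58 (-4.02, SE 0.36, adjusted p = 0.000271, and -3.57 without naive 1). Actn1, an actin crosslinker, fell from 10.85, 9.59 and 9.63 to 6.43, 6.38 and 6.35 (-3.64, SE 0.30, adjusted p = 0.000169, and -3.22 without naive 1). Itm2a, a membrane protein under GATA3 control in developing T cells, was at 7.87, 10.11 and 9.65 and 5.37, 5.69 and 5.71 and, unlike Ms4a4b and Actn1, was lowest on naive 1 among naive arrays. Its difference was -3.62 with and -4.29 without that array. Dapl1 lay at 5.73, 5.43 and 5.28 on the acute Th2 arrays, and its call (-3.90, adjusted p = 0.0301) was lost without any 1 acute or chronic Th2 array (up to 0.115). Without naive 1 the difference was -2.69 (adjusted p = 1.35e-05).

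Factors that hold T cells in quiescence behaved in more than 1 way. Klf2, which drives S1pr1, was at 10.21, 8.70 and 8.38 and 7.45, 7.65 and 7.68, and all lung arrays lay below all naive arrays. It did not pass with naive 1 (adjusted p = 0.0711) and did without it (-0.95, adjusted p = 0.00264). Il6ra, the interleukin 6 receptor, behaved likewise, at 10.66, 8.67 and 8.77 and 7.71, 7.80 and 7.82 (adjusted p = 0.000245 without naive 1). Foxo1, which drives Il7r and Klf2, went the other way: it was at 10.24, 8.73 and 8.92 and 9.69, 9.96 and 9.83 and was higher in acute Th2 cells without naive 1 (1.00, adjusted p = 0.000723). It was the 1 member of the list called higher there. Of the 8 GIMAP GTPases, which sustain lymphocyte survival, Gimap4 fell, from 10.97, 10.54 and 10.08 to 8.63, 9.03 and 8.99 (-1.65, adjusted p = 0.00259), and 0 rose. This 1 call is 12.5% of the list, against 5.87% of all genes. Without naive 1, Gimap5 and Gimap7 were higher, by 0.43 and 0.82.

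Of 38 components of T cell receptor signalling, 9 fell, 2 rose and 27 did not pass, with a median of -0.51 (-0.30 without naive 1). The counts were 16 and 5 without naive 1, and 4 fell without any 1 of the acute Th2 arrays. The phosphatase gene Ptpn6, which encodes SHP-1, was at 9.18, 9.18 and 9.31 and 7.77, 7.83 and 7.75 (-1.44, SE 0.08, adjusted p = 1.47e-05), with little spread in either group. The falls included activators and brakes. Txk and the adaptor gene Lat fell by 2.46 and 0.97, the ubiquitin ligase gene Cblb, which restrains activation without CD28, by 1.52, and the diacylglycerol kinase genes Dgka and Dgkz by 1.68 and 0.99. Lat, Dgka and Dgkz lost their calls without any 1 of the acute Th2 arrays, and Lat and Dgkz in other fits too (up to 0.177, 0.0913 and 0.0995). Cblb lost it without acute Th2 1 (0.0573). The 2 that rose, both in all 9 fits, were Tec, the sister kinase of Txk, from 6.06, 6.13 and 5.89 to 7.58, 7.17 and 7.32, and Rnf128, the ubiquitin ligase GRAIL, from 5.27, 5.59 and 5.51 to 6.41, 6.51 and 6.47. Prkcq, the protein kinase C theta of the synapse, was at 11.57, 9.93 and 9.74 and 8.90, 9.01 and 8.97 and passed only without naive 1 (-0.88).

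Of 33 feedback inhibitors of signalling, 5 rose and 2 fell (9 and 4 without naive 1). Socs2, which restrains STAT5 signalling, rose from 6.01, 6.72 and 5.95 to 9.38, 9.50 and 9.49 (3.23, SE 0.20, adjusted p = 3.2e-05). Rgs1, which dampens chemokine receptor signals, rose from 9.44, 8.63 and 9.02 to 11.88, 11.79 and 11.82 (2.80, SE 0.20, adjusted p = 6.54e-05). MAP kinase phosphatases moved in both directions. Dusp4 rose from 7.77, 8.76 and 8.67 to 10.51, 10.76 and 10.81, Dusp16 by 2.04 and Dusp14 by 1.14, while Dusp2 fell from 9.09, 10.14 and 10.21 to 7.98, 8.29 and 8.10 (-1.70, adjusted p = 0.00805). Dusp16 had an adjusted p of 0.0504 without acute Th2 3. Rgs3 was the other that fell, by 0.94, and passed only with all arrays, without naive 1 and without naive 2 (otherwise up to 0.143). Spry1 was at 7.50, 10.95 and 10.61 and 8.93, 8.84 and 9.05, called lower only without naive 1 (-1.85), and Dusp10 at 11.22, 8.24 and 8.34 and 9.70, 9.68 and 10.01, called higher only without it (1.51).

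Genes that stimulation through CD3 and CD28 induces were called in other numbers with and without naive 1. Of 33, 2 rose and 1 fell with all arrays (9.09%, against 5.87% of all genes). Without naive 1, 5 rose and 11 fell, beside 12.2% of all genes called. The median level of the list was 8.63 on naive 1, against 9.86 and 10.31 on naive 2 and 3 and 9.39, 9.52 and 9.53 on the acute Th2 arrays. The median difference was -0.15, and -0.30 without naive 1. Ier3, an early response gene of survival, rose both ways, from 6.67, 6.43 and 6.75 to 8.88, 8.20 and 8.31 (1.85, SE 0.21, adjusted p = 0.00104). Irf8 rose by 1.39 (adjusted p = 0.0126, and 0.0553 without acute Th2 1), and Tagap fell, as given above. The higher count was 1 without acute Th2 1. The lower count was 0 without naive 2, acute Th2 1 or acute Th2 3 and 2 without chronic Th2 1.

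Orphan nuclear receptors of the NR4A family, among the first genes switched on by the T cell receptor, were lower in acute Th2 cells than on naive 2 and 3. Nr4a1 was at 10.72, 12.66 and 12.88 in naive and 11.22, 11.46 and 11.56 in acute Th2 cells, Nr4a2 at 7.62, 10.85 and 11.37 and 9.27, 8.92 and 8.94, and Nr4a3 at 8.51, 11.51 and 11.85 and 9.93, 10.03 and 9.96. On each, the lung arrays lay between naive 1 and both other naive arrays. None passed with naive 1 (adjusted p from 0.686 to 0.809), and without it the differences were -1.36, -2.07 and -1.71 (adjusted p = 0.0486, 0.000616 and 0.00883). Egr3, which limits activation, showed the same order, at 8.22, 9.32 and 9.91 and 8.58, 8.24 and 8.29 (-1.25 without naive 1, adjusted p = 0.00248). Myc, the growth regulator, was at 10.19, 12.16 and 12.19 and 11.32, 11.41 and 11.10 (-0.90, adjusted p = 0.0062). Egr1 did not pass either way, at 10.03, 10.54 and 11.02 and 10.96, 10.67 and 10.91, nor did Egr2, at 7.96, 10.75 and 11.16 and 10.66, 10.56 and 10.61. Genes of AP-1 subunits were on either side on naive 1. Jun was at 10.92, 7.52 and 7.95 in naive and 8.06, 8.05 and 8.23 in acute Th2 cells, Junb at 10.74, 8.67 and 8.97 and 9.39, 9.52 and 9.53, and Fos at 9.49, 7.45 and 7.74 and 7.05, 7.40 and 7.41, each highest on naive 1, and of these only Junb passed, without naive 1 (0.66). Fosb and Jund were highest there too, at 8.94, 7.53 and 7.68 and at 10.16, 9.0 and 9.07 in naive cells, whereas Fosl1 and Fosl2 were lowest there, at 6.54, 8.72 and 9.17 and at 8.36, 9.30 and 9.74. Acute Th2 cells were at 8.03, 7.78 and 7.88 for Fosb, 9.08, 8.97 and 9.06 for Jund, 8.63, 8.59 and 8.70 for Fosl1 and 9.88, 9.93 and 9.90 for Fosl2, and none of these 4 passed with or without naive 1. Tnfaip3, an inhibitor of NF-kappaB, was also highest on naive 1, at 11.59, 9.65 and 9.76 and 10.49, 10.71 and 10.66 (0.91 without naive 1). The NF-kappaB subunit gene Rel was at 10.72, 12.02 and 12.23 and 11.37, 11.49 and 11.50, and Nfatc1, an NFAT factor, at 9.47, 9.83 and 10.32 and 9.27, 9.23 and 9.41. Both passed only without naive 1, by -0.67 and -0.77 (adjusted p = 0.0303 and 0.0086). The other NF-kappaB genes and the early response genes Ier2 and Ier5 did not pass either way. With all arrays the differences were 0.45 for Nfkb2, 0.12 for Relb, 0.53 for Nfkbia, -0.43 for Nfkbid, -0.66 for Ier2 and 0.31 for Ier5. Without naive 1 they were -0.02, -0.28, 0.52, -1.21, -0.60 and 0.47.

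**Figure D4:**
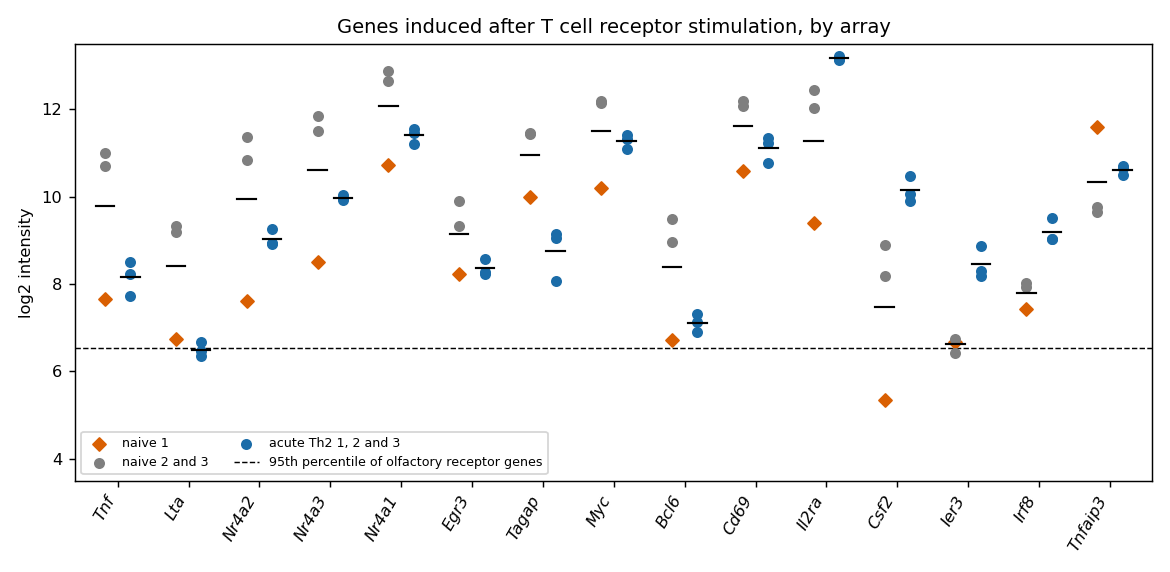
Log2 intensity on each of the 6 arrays for 15 genes that stimulated T cells induce, chosen after their values were seen to span both directions. Jun, Junb, Fos, Fosb and Jund, which were highest on naive 1 among naive arrays, are not shown, so that the choice does not stand for the list. Diamonds are naive 1, grey points naive 2 and 3, blue points acute Th2 arrays, short bars group means and the dashed line 6.53. For Tnf, naive 1 at 7.65 lies beside the acute Th2 arrays and naive 2 and 3 at 10.71 and 11.01 above them.

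Of 21 granule and cytotoxic genes, 3 rose and 3 fell (4 and 4 without naive 1). Gzmb, the protease granzyme B, rose from 4.67, 5.49 and 5.05 to 9.86, 10.28 and 10.21 (5.05, SE 0.34, adjusted p = 4.53e-05) and alone of the 6 passed in all 9 fits. Gzma, granzyme A, stayed below 6.53 in both groups, at 5.20, 4.95 and 5.14 and 5.92, 5.54 and 5.46. Crtam, a receptor of cytotoxic CD4 cells, fell from 6.53, 8.41 and 7.73 to 5.6, 5.19 and 5.12 (adjusted p = 0.0118, and up to 0.0598 without acute Th2 2 or 3). Without acute Th2 2 or 3 the counts were 1 and 0, and without chronic Th2 1 the count higher was 1.

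Of 28 S100, annexin and galectin genes and their companions in the actin and intermediate filament cortex, 13 rose, 0 fell and 15 did not pass. The median difference was 0.76 (0.99 without naive 1). An unadjusted p under 0.05 in either direction was reached by 19, beside 16.3% of all genes. The number that rose was 21 without naive 1, 7 without acute Th2 1 or 3, and 7 in all 9 fits. Anxa2, which bridges membranes and actin, rose from 5.76, 5.72 and 5.83 to 8.10, 8.19 and 8.40 (2.46, SE 0.11, adjusted p = 3.17e-06). Lgals3, galectin 3, rose from 7.10, 6.87 and 7.13 to 8.98, 8.76 and 9.31, Emp1, an epithelial membrane protein, from 6.72, 6.69 and 7.02 to 8.73, 8.89 and 9.25, and the actin-capping gene Capg from 7.67, 8.46 and 8.70 to 10.33, 10.07 and 10.19. Lgals1, galectin 1, was at 9.71, 7.25 and 7.74 and 11.27, 10.88 and 10.999, and the filament gene Vim at 11.60, 9.73 and 9.45 and 12.25, 12.18 and 12.40, both highest on naive 1 among naive arrays. Lgals1 rose by 2.82 (adjusted p = 0.0176) and by 3.56 without naive 1, and lost its call without naive 3 or any 1 acute Th2 array (up to 0.076). Vim passed with all arrays (adjusted p = 0.0447) and without naive 1 (2.69), and in none of the other 8 fits (up to 0.158).

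The cytoskeleton list had 6 of 42 higher and 4 lower (8 and 5 without naive 1). Plek, pleckstrin, rose from 5.55, 7.51 and 7.51 to 9.79, 9.89 and 9.96, and the unconventional myosin gene Myo1e from 6.26, 6.26 and 6.04 to 8.76, 8.95 and 9.12 (2.76, SE 0.22, adjusted p = 0.000126). Another myosin gene, Myo10, fell from 8.46, 9.13 and 9.12 to 7.24, 7.53 and 7.39, and the calponin gene Cnn3 from 7.56, 8.30 and 8.06 to 5.79, 6.09 and 6.31, beside Actn1 above. All 5 passed in every fit. Dock8, which keeps T cells intact as they squeeze through tissue, was at 10.55, 8.70 and 8.59 and 9.14, 9.23 and 9.31, and its difference changed sign, from -0.05 with naive 1 to 0.58 without it.

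Ion channels and transporters had 5 of 42 higher and 3 lower, and 7 and 8 without naive 1. The metallothioneins Mt1 and Mt2 led, Mt1 at 7.26, 7.44 and 7.05 and 9.96, 10.53 and 10.39. Kcnk5 and Kcnk6, potassium channels of the leak type, rose by 2.27 and 1.17, and the calcium pump gene Atp2b1 by 1.19. Atp1b1, a subunit of the sodium pump, fell from 10.28, 9.26 and 9.13 to 5.65, 5.86 and 6.21 (-3.65, SE 0.28, adjusted p = 0.000103, and -3.29 without naive 1). Slc2a3, a glucose transporter, fell from 8.32, 8.06 and 8.01 to 7.15, 7.53 and 7.49. The calcium-activated potassium channel gene Kcnn4 fell by 1.09, a call lost without any 1 acute or chronic Th2 array (up to 0.147). Asns, listed above for its gap on naive 1, was at 5.97, 10.75 and 10.33 and 12.04, 12.12 and 12.08 and was called higher only without that array (1.54, adjusted p = 0.000107).

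Of 44 genes of lipid and eicosanoid metabolism, 5 rose and 0 fell (11.4%, against 5.87% of all genes). An unadjusted p under 0.05 in either direction was reached by 11, beside 16.3% of all genes. The counts of calls were 9 and 2 without naive 1, 1 lower without naive 3, and 3 higher without acute Th2 3. Plin2, the coat protein of lipid droplets, rose from 6.56, 6.47 and 6.53 to 9.75, 9.38 and 9.86 (3.14, SE 0.13, adjusted p = 1.84e-06), beside Pparg. Sc5d, an enzyme of cholesterol synthesis, rose from 8.08, 7.90 and 7.67 to 8.96, 8.96 and 8.97. Ptgs2, the prostaglandin synthase COX-2, rose from 5.82, 5.6 and 5.87 to 6.73, 8.20 and 7.78, with an adjusted p of 0.0597 without acute Th2 3. Acadl, an enzyme of fatty acid oxidation, was at 7.43, 6.39 and 5.74 and 7.52, 7.54 and 7.69 and passed only without naive 1 (1.52, adjusted p = 0.000616).

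Enzymes that build surface sugars moved in both directions. Of 41 glycosyltransferases and sulfotransferases, 6 rose and 6 fell (10 and 9 without naive 1, and 3 fell without acute Th2 3). Gcnt1, whose branched O-glycans carry selectin ligands, rose from 4.79, 5.37 and 5.17 to 9.41, 9.21 and 9.48 (4.26, SE 0.16, adjusted p = 1.11e-06), and Galnt3, which starts O-glycans, from 5.6, 6.26 and 6.13 to 8.54, 8.27 and 8.35. Cmah, which hydroxylates sialic acid, fell from 10.41, 8.50 and 8.30 to 5.59, 5.56 and 5.73 (-3.45, SE 0.47, adjusted p = 0.00296), and St8sia6, which links sialic acids to each other, from 10.26, 9.01 and 8.59 to 5.73, 6.10 and 5.76. Both were highest on naive 1, and without it the differences were -2.77 and -2.94. The sulfotransferase genes Chst11 and Chst15 moved in opposite directions, by 1.39 and -1.13. These 6 genes passed in all 9 fits.

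Of 56 cell cycle genes, 21 rose, 0 fell and 35 did not pass. An unadjusted p under 0.05 in either direction was reached by 38, beside 16.3% of all genes. The median difference was 0.52 (0.51 without naive 1), and 11 of the 21 passed in all 9 fits. The count was 13 without acute Th2 2, and 2 were lower without naive 1 or naive 3. Cdk6, a kinase of the entry into the cycle, was measured above background in both groups, at 7.50, 9.31 and 8.78 and 10.58, 11.03 and 11.03 (2.35, SE 0.40, adjusted p = 0.00927, and 1.84 without naive 1). From naive means under 6.53, the topoisomerase gene Top2a rose from 6.02, 5.30 and 5.52 to 8.42, 8.30 and 7.85, and Nusap1, a spindle protein, from 5.41, 4.62 and 5.08 to 7.35, 6.61 and 6.59. Cdt1, a licensing factor of replication, was one of those lower without naive 1, at 7.87, 8.53 and 8.26 and 7.88, 7.60 and 7.34 (-0.79).

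Of 31 survival and apoptosis genes, 8 rose and 1 fell. The counts were 9 and 4 without naive 1, and 5 rose without acute Th2 2 or 3. Casp4 and Casp1, inflammatory caspases, rose from 5.59, 6.44 and 6.16 to 9.04, 9.50 and 9.24 and from 4.57, 4.30 and 4.08 to 5.51, 6.50 and 6.23, with naive means below 6.53 and, for Casp1, an acute Th2 mean below it too. Perp, a membrane effector of p53, rose from 4.76, 4.90 and 5.05 to 9.53, 9.23 and 9.22 (4.42, SE 0.15, adjusted p = 5.83e-07), and Bnip3, a gene of hypoxia and mitochondrial turnover, by 1.39. Pik3ip1, an inhibitor of PI3 kinase, was the member that fell, from 9.32, 8.05 and 7.63 to 6.75, 6.60 and 6.73, and passed only with all arrays, without naive 1 and without naive 3 (otherwise up to 0.126). Bcl2 and Bcl2l11, the survival factor and its antagonist BIM, were at 10.77, 9.75 and 9.89 and 9.24, 9.56 and 9.43 and at 8.60, 9.14 and 9.32 and 7.75, 8.10 and 8.18, and both were called lower without naive 1, by 0.41 and 1.22.

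Of 40 chromatin regulators, 2 rose and 2 fell, which is 10.0% against 5.87% of all genes (5 and 8 without naive 1). Ezh2, the methyltransferase of Polycomb, rose from 8.46, 8.98 and 9.0 to 10.30, 10.31 and 10.26 (1.48, SE 0.20, adjusted p = 0.00301), and Tet2, which oxidises methylated cytosine, from 8.44, 8.39 and 8.89 to 9.57, 9.67 and 9.85. Cbx7, a Polycomb reader, fell from 9.22, 8.77 and 8.77 to 7.30, 7.58 and 7.47 (-1.47, adjusted p = 0.000731). Kdm7a fell by 1.02 and passed only with all arrays, without naive 1 and without naive 3, and the lower count was 1 in each of the other fits. Dnmt3a, a DNA methyltransferase, was at 7.69, 9.10 and 9.02 and 7.85, 8.00 and 8.17, called lower only without naive 1 (-1.05).

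Of 24 genes of nucleotide signalling and cyclic AMP, 3 rose and 0 fell (12.5%, against 5.87% of all genes). Without naive 1 the counts were 4 and 1. An unadjusted p under 0.05 in either direction was reached by 7, beside 16.3% of all genes. Entpd1 (CD39) and Nt5e (CD73) encode the enzymes that degrade extracellular ATP to adenosine. Entpd1 rose from 6.43, 5.51 and 5.38 to 8.99, 8.77 and 8.78 (3.08, SE 0.25, adjusted p = 0.000132), and Nt5e from 6.88, 6.82 and 6.62 to 7.64, 8.03 and 7.78 (1.05, SE 0.17, adjusted p = 0.00805). The third was Creb3l2, a transcription factor of the secretory pathway, which rose by 2.72. Adk, which removes adenosine inside the cell, was at 8.25, 10.08 and 9.81 and 8.31, 8.56 and 8.66 and was lower only without naive 1 (-1.44, adjusted p = 0.000727).

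Few microRNA genes passed. Probe sets are assigned to the genes, so that a value need not be that of a mature microRNA. Of 300 measured, 1 was higher and 2 were lower in limma, and 21 had an unadjusted p under 0.05. Over all genes, 5.87% were called and 16.3% had such an unadjusted p. Without naive 1, 3 were higher and 14 lower, beside 12.2% of all genes called. The mature sequences of the 3 called genes are RefSeq's of GRCm38.p6, with the seed (bases 2 to 8), which pairs with target transcripts, in capitals.
mmu-miR-31-5p: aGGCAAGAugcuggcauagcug
mmu-miR-31-3p: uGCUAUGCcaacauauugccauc
mmu-miR-505-5p: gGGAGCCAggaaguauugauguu
mmu-miR-505-3p: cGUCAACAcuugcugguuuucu
mmu-miR-7a-5p: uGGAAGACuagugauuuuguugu
mmu-miR-7a-1-3p: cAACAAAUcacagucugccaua
No seed was shared among them. Mir7-1, on chromosome 13, fell from 9.38, 9.14 and 9.49 to 8.22, 8.50 and 8.49 (-0.94, SE 0.14, adjusted p = 0.00502) and was the 1 microRNA gene that passed in all 9 fits. Mir505, on chromosome X, fell from 10.68, 9.28 and 9.29 to 8.26, 7.98 and 7.99 (adjusted p = 0.0381), and Mir31, on chromosome 4, rose from 5.52, 5.61 and 6.24 to 6.73, 6.69 and 6.83 (adjusted p = 0.0209). The naive mean of Mir31 lay below 6.53. Mir505 lost its call without acute Th2 1, acute Th2 2, acute Th2 3, chronic Th2 1 or chronic Th2 2 (up to 0.142), and Mir31 without naive 2, acute Th2 1, acute Th2 2 or acute Th2 3 (up to 0.0936).

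Markers of other cells were read beside these results, since sorted fractions can hold other cells and, in bulk RNA, fewer cells of a type and less RNA per cell cannot be told apart. All 9 T cell markers lay above 6.53 on every array. The lists of B cells (9 genes), macrophages, monocytes and dendritic cells (27), neutrophils (12), lung epithelium (20), endothelium and stroma (20), NK, CD8 and gamma delta T cells (10) and red cells and platelets (6) had 0 genes called by limma when all arrays were used. Without naive 1, 1 of them passed, the macrophage and dendritic cell list's Cd74, the invariant chain of MHC class II, at 5.83, 5.57 and 5.91 in naive and 6.53, 6.09 and 6.51 in acute Th2 cells (0.64, adjusted p = 0.0394). In other fits that left out 1 array, these lists had at most 1 call each. At an unadjusted p under 0.05 they had 1, 2, 0, 1, 2, 2 and 1, and no array had more than 1, 5, 0, 4, 7, 3 and 2 of their members above 6.53. Their mean level ran from 5.19 to 6.15 on naive arrays and from 5.06 to 6.10 on acute Th2 arrays. Of 17 eosinophil, mast cell and basophil genes, Hdc, which makes histamine, and Ccr3, the eotaxin receptor, rose, by 2.75 and 0.91 (11.8%, against 5.87% of all genes). The mean level of that list was 5.53 to 5.63 in naive and 5.73 to 5.91 in acute Th2 cells, with 2 to 4 and 4 to 5 members above 6.53. On Ccr3 the naive mean was 5.665, below 6.53, and the acute Th2 mean 6.577, at about that level. Of 10 type 2 innate lymphoid cell genes, 5 rose (6 without naive 1), Gata3, Klrg1, Ptpn13, Rora and Il17rb, with mean levels of 7.22 to 7.51 on naive and 8.94 on acute Th2 arrays. Th2 cells share these genes, and the part of either cell type in the results was not tested. The lists of other cells held none for regulatory T cells, so that their part was not read.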

How the data were processed

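RNA of mouse CD4 T cells, labelled as sorted and stimulated, was measured on 9 arrays, 6 of them naive and acute Th2. The authors deposited log2 intensities of 34760 probe sets. Normalisation was by RMA per the submitters' processing notes, where limma is listed too. For its version, the genome build and any filter, nothing is stated in these notes or the labels. No further normalisation was applied. Of the probe sets, 21640 name 1 gene, 1321 several (not used) and 11799 none. The brightest of a gene was kept, which gave 19937 genes, with no filter on dim genes.

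A linear model with 1 mean per group was fitted to all 9 arrays in limma 3.58.1 (R 4.3.3), and the contrast of acute Th2 with naive cells was taken through eBayes as a two-sided test, so that the 3 chronic Th2 arrays (lung, day 104) add to the estimate of the spread. Benjamini-Hochberg adjustment ran over all genes, with 0.05 as the threshold. The code was tested on simulated data. SE is that of the moderated test. The number of arrays limits the precision, and an exact permutation test of 3 against 3 arrays cannot give a two-sided p under 0.1.

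Genes to name were drawn from the 10 largest rises and falls above background in both groups, up to 6 called members of each list and direction (or up to 2 as values), all sort marker and stimulation genes, and the 6 genes highest and 6 lowest on naive 1 against naive 2 and 3. Members that passed only without naive 1 (up to 4 of each list) and the microRNA genes were chosen after their values were seen, and predicted genes and antigen receptor segments were left out of the largest and the naive 1 genes. The gene lists, the background measure and the comparison itself were chosen with earlier results of these data known. Promoter and microRNA sequences were matched by symbol to RefSeq tables of GRCm38.p6, with the outermost start kept where a gene has several. Alternatives were leaving out each array, the 6 arrays alone, a replicate block, quantile normalisation, median centring, array weights, trended and robust shrinkage, a filter on dim genes and the mean of a gene's probe sets.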

Additional observations from a re-analysis of the deposited data

How the results depend on the processing

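The number called, 1171 (732 higher, 439 lower), ran from 653 to 2424 when 1 array was left out (460 to 1206 higher, 193 to 1218 lower), with the highest counts without naive 1 and the lowest without acute Th2 3. It was 762 on the 6 naive and acute Th2 arrays alone (533 higher, 229 lower). With array weights it was 4019 (1948 higher, 2071 lower). These weights were 0.165, 0.982 and 1.614 for naive 1, 2 and 3 and 0.466, 1.291 and 8.234 for acute Th2 1, 2 and 3. The weighted acute Th2 mean thus rests largely on acute Th2 3. Without naive 1 and without the chronic Th2 arrays, a setting chosen after seeing the data, it was 2165 (1124 higher, 1041 lower). List members called, 215 in all, ran from 158 to 339 when 1 array was left out and were 403 with array weights and 331 in the added setting. Quantile normalisation (1170), median centring (1083), trended and robust shrinkage (1074), the filter on dim genes (1051) and the mean of probe sets (1182) moved the count by less than 1.5 times. Of the named genes, Ccl3 (-1.17), Sema7a (-0.85) and Dock8 (0.58) passed with the opposite sign without naive 1 and, at the same values, in the added setting, where Flt3l (0.54) did too. Over the fits that left out 1 array, Ccl3 ran from -1.17 to 1.76, Dock8 from -0.40 to 0.58 and Sema7a from -0.85 to 1.40. Array weights also turned the sign of these 4 genes (Ccl3 -0.99, Sema7a -0.66, Dock8 0.54 and Flt3l 0.41), with no call. Of 277 named genes, array weights brought 89 past the threshold and lost 0. The cause of these shifts was not tested.

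With the replicate number as a block, 1261 genes passed (804 higher, 457 lower), 1050 of them shared with the 1171. Deviations of naive and acute Th2 arrays of the same number correlated at 0.12, 0.33 and -0.09 across genes. Those of acute and chronic Th2 arrays correlated at 0.57, -0.01 and 0.40. Deviations within a group are not independent of each other, so these values cannot show whether arrays of the same number share a batch. The titles give only a replicate number and state no pairing. Levels under 6.53 cannot be told from background, which limits the size of differences that start or end there.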
